A study of Mus musculus with 6 samples.

Results

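Complement components and regulators were followed in mouse peritoneal exudate cells as a list of 8 genes: the C1q chains C1qa, C1qb and C1qc, the central component C3, factor B (Cfb), properdin (Cfp), the C3a receptor (C3ar1) and the C1 inhibitor (Serping1). Members were all probe sets whose only platform gene symbol was on that list. They came to 9 probe sets of 7 genes, out of 12488 probe sets and 8251 named genes in all. No probe set carried the symbol C3 in the annotation used, and C3 was not analysed here. C1qb and Cfb had 2 probe sets each.

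The 6 single-colour Affymetrix arrays were hybridised with RNA of cells that the labels call PEC or peritoneal macrophages, all of strain C57BL/6. The cells were wild type (WT), lacked NF-IL6 (KO) or came from a knock-in line labelled KI(LAP) (KI), and each genotype had an untreated array and an array of cells given lipopolysaccharide (LPS) and interferon-γ. NF-IL6 is an older name of the transcription factor C/EBPβ, and LAP stands for its longer, activating protein. A stimulation time, 12 h, is labelled for the KO and KI cells but not for the WT cells. Every group was 1 array, and whether an array stood for 1 animal or a pool, and how the cells were elicited, was not stated in the labels. So few arrays limit the precision of all values that follow.

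Complement is a cascade of blood and tissue proteins that tags microbes and dying cells and recruits phagocytes. C1q starts the classical pathway by binding antibody or altered surfaces, C3 is the point where all pathways meet, and factor B and properdin drive the alternative pathway that amplifies C3 cleavage. Macrophages are a main source of C1q and properdin, and they carry receptors for the small peptides released during activation. C/EBPβ is best known for controlling inflammatory and acute-phase genes.

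Upstream sequence of 3 members is shown because the C1q chains are encoded next to each other on chromosome 4 and were compared with each other across the arrays, while C3ar1 moved most with stimulation. The RefSeq promoter table (GRCm38.p6) held windows for C1qb, C1qc, Cfp and C3ar1, and the 250 bases before the start site were searched on both strands for a C/EBP site (TTGCNNAA), an interferon-γ-activated site (TTCNNNGAA), an interferon-stimulated response element (GAAANNGAA), the core of a PU.1 site (GAGGAA) and the κB consensus. All 3 windows lie on the minus strand, at chr4:136886201-136886450 for C1qb, chr4:136892915-136893164 for C1qc and chr6:122856158-122856407 for C3ar1. Capitals mark a match to any of these motifs.
C1qb: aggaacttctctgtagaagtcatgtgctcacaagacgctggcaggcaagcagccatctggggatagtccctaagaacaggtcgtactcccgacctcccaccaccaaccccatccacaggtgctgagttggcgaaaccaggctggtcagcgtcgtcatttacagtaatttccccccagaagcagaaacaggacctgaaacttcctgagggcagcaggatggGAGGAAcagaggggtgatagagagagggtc
C1qc: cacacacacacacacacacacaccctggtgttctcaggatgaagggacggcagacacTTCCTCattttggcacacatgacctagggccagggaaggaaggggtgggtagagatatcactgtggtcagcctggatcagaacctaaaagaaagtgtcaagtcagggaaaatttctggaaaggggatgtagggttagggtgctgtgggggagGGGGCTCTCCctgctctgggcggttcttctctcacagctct
C3ar1: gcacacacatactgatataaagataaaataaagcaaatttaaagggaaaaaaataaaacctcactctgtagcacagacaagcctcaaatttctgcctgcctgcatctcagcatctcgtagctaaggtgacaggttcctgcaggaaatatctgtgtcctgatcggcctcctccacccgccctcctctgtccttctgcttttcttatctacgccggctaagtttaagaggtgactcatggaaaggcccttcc
The C1qb window held the PU.1 core on its own strand, at -30 to -25 from the start site, and the C1qc window held it on the other strand, at -193 to -188. The C1qc window also held a κB match, at -41 to -32. The C3ar1 and Cfp windows held none of the 5 motifs. Among 32851 promoters of the table, windows of the same length held the PU.1 core in 23.3%, the C/EBP site in 9.56%, the κB consensus in 7.25%, the response element in 7.13% and the interferon-γ-activated site in 7.02%. A match is a run of letters and not a shown site.

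Before the members were read, the arrays were compared. The targeted gene Cebpb read 5491.5 untreated and 9328.5 stimulated in WT, while KO cells read 12.7 and 59.0 and KI cells 2283.7 and 5890.3. The array median ran from 131 to 185, and the lowest medians were those of the KI arrays. Signals under a floor of 98.0 were set to it before log2 was taken, and differences below are on that scale. Centring the arrays on their medians in place of their trimmed means would raise the log2 changes of members with stimulation by 0.17 to 0.19, and the KI minus WT difference of untreated cells by 0.33. Cfb, with signals at or near the floor, was the exception, with log2 changes raised by 0.07 to 0.27. Of 10 macrophage markers, 10 were above the floor on each untreated array and 9 on each stimulated one, and 5 of 6 T cell markers on the array, Cd3e among them, were under it on every array. In RNA of whole cell preparations, fewer cells of a type and less RNA per cell cannot be told apart.

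C3ar1, the receptor for the inflammatory peptide C3a, fell after stimulation in all 3 genotypes. Its WT arrays read 5110.9 untreated and 863.8 stimulated, its KO arrays 7000.8 and 2020.9, and its KI arrays 4442.5 and 1243.5. All untreated arrays were higher than all stimulated arrays, a split whose share over all probe sets was not counted. The decline was 5.92-fold in WT, 3.46-fold in KO and 3.57-fold in KI cells, a mean log2 change of -2.06 (SE 0.19, limma adjusted p = 0.00617, n = 3 pairs of arrays). The limma test took genotype as a block, so its error was the variation of the response between genotypes and not between animals. Leaving out 1 array of a genotype therefore gives the same mean change as leaving out both, so the 6 omissions are not 6 separate checks. With any 1 of the 6 arrays left out, the mean log2 change of C3ar1 ran from -2.20 to -1.81 and no longer passed (limma adjusted p 0.121 to 0.244). Those fits have 1 residual degree of freedom and called 15 probe sets in all without the untreated KI array and 0 without any other array, so a lost call in them says little about a gene.

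Serping1 and Cfb were higher on the stimulated array of each genotype. Cfb encodes factor B, the protease that forms the alternative pathway convertase with C3b. Its probe set 100609_at read 113.1 and 262.4 in WT, 110.0 and 263.5 in KO, and 84.6 and 173.6 in KI cells, untreated and stimulated. The WT and KO arrays were nearly equal in each state, and the KI arrays were the lowest in each. Cfb rose 2.32-fold in WT, 2.40-fold in KO and at least 1.77-fold in KI cells, where the untreated signal was under the floor (mean log2 change 1.10, SE 0.20, limma adjusted p = 0.0334, n = 3 pairs of arrays). Its other probe set, 161365_r_at, read 140.3 and 166.7 in WT, 70.0 and 118.7 in KO and 93.9 and 165.3 in KI cells and did not pass, with a mean log2 change of 0.43 (SE 0.17, limma adjusted p = 0.195). The suffix _r_at marks a probe set that Affymetrix designed under relaxed rules. All Cfb signals lay near the floor: with the floor at the 20th percentile of all signals the first probe set had a limma adjusted p of 0.103 at a mean log2 change of 1.17, with it at the 60th percentile these were 0.661 and 0.04, and with any 1 array left out the mean log2 change stayed between 1.02 and 1.24 at a limma adjusted p of 0.144 to 0.325.

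Serping1 encodes the C1 inhibitor, which blocks the proteases C1r and C1s bound to C1q. The WT signal was 247.7 untreated and 1150.5 stimulated, the KO signal 169.5 and 414.9, and the KI signal 267.4 and 414.1. The stimulated WT array stood above the other 5, and the stimulated KO and KI arrays were alike. The stimulated signal was 4.64-fold the untreated one in WT, 2.45-fold in KO and 1.55-fold in KI cells. The mean log2 change of 1.38 did not pass the test (SE 0.36, interval 0.46 to 2.30, limma adjusted p = 0.0768, unadjusted p = 0.0117). It passed when a pseudocount of 32 replaced the floor (1.27, limma adjusted p = 0.0165).

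**Figure D1:**
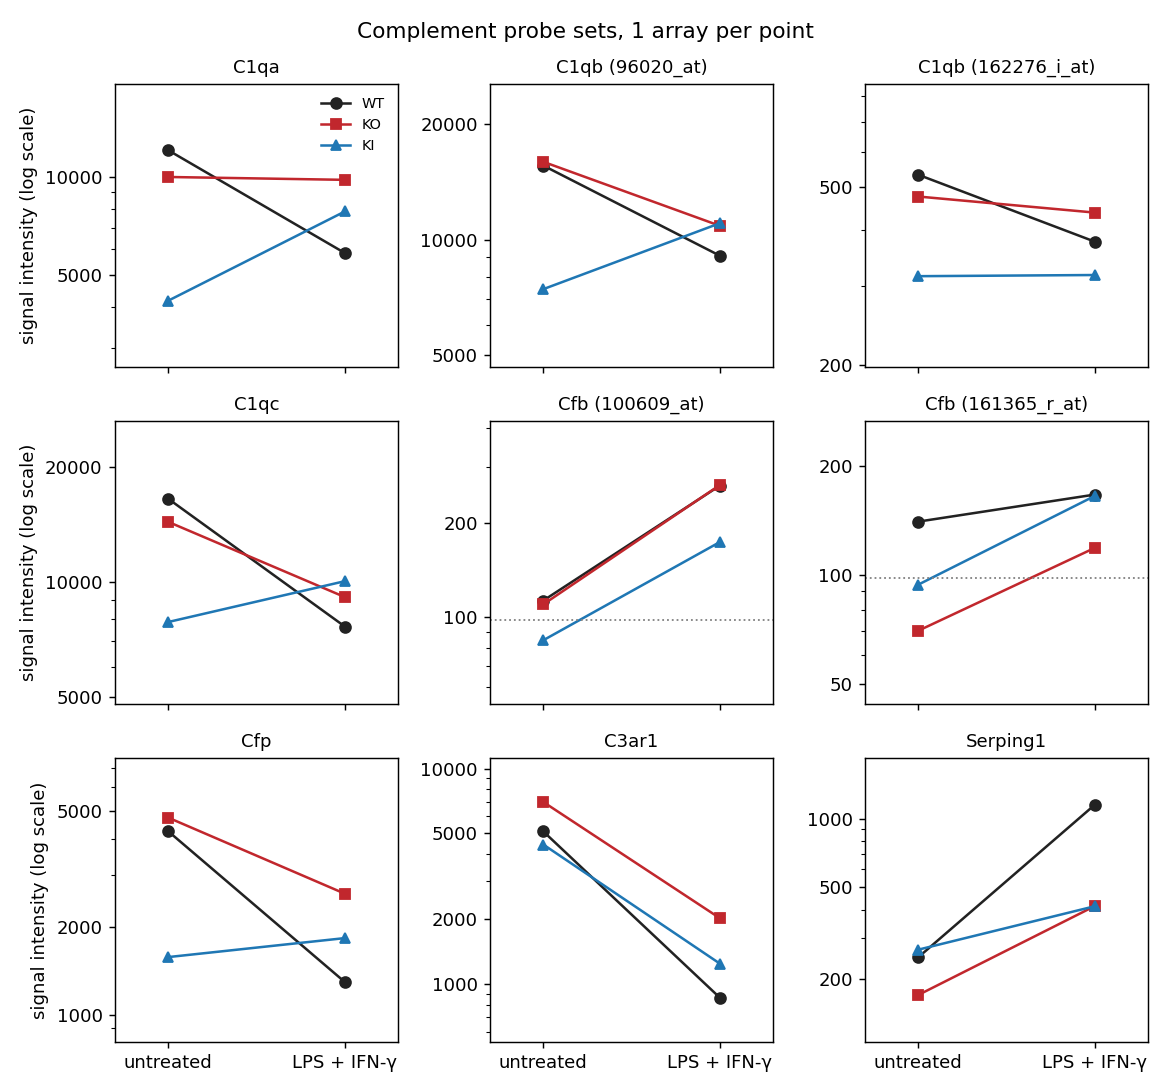
Signal intensity on a log scale (each panel has its own range) of the 9 probe sets, untreated and after LPS with interferon-γ; each point is 1 array, lines join the arrays of 1 genotype, and the dotted line is the floor of 98.0. C3ar1 fell in every genotype, while Cfp and the main probe set of each C1q chain fell in WT and rose in KI cells. The WT and KI lines cross for these probe sets and also for C3ar1 and Serping1.

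The C1q chains were lower after stimulation in WT and higher after it in KI cells. C1qa, the A chain, had a WT signal of 12079.5 untreated and 5849.5 stimulated, a KO signal of 10002.8 and 9803.1, and a KI signal of 4178.6 and 7841.5. The untreated KI array was the lowest of the 6 and the untreated WT array the highest. C1qc, the C chain, read 16520.8 and 7650.0 in WT, 14375.2 and 9135.3 in KO, and 7860.2 and 10053.5 in KI cells. For this chain the stimulated WT and the untreated KI array were the 2 lowest. C1qb, the B chain, read 15616.5 and 9081.0 in WT, 15975.5 and 10870.4 in KO, and 7426.6 and 11040.4 in KI cells by its probe set 96020_at, again with the untreated KI array at the bottom.

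The size of these changes was moderate. After stimulation C1qa was 2.07-fold lower in WT and 1.88-fold higher in KI cells, C1qb 1.72-fold lower and 1.49-fold higher, and C1qc 2.16-fold lower and 1.28-fold higher. In KO cells C1qb and C1qc were 1.47-fold and 1.57-fold lower, while C1qa differed by 0.03 on the log2 scale, a value whose sign turned under median centring. The mean effect of stimulation over the genotypes passed for no chain (log2 -0.06, -0.26 and -0.47 for C1qa, C1qb and C1qc, limma adjusted p from 0.373 to 0.937). A difference in response between genotypes has no residual degrees of freedom here and was not tested.

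Centred on each chain's own mean, the 3 chains lay within 0.06 to 0.18 of each other on 4 arrays, and were 0.52 apart on the stimulated KO array and 0.49 on the untreated KI array. On both of these arrays C1qa stood apart from the other chains, upwards in stimulated KO cells and downwards in untreated KI cells. The second C1qb probe set, 162276_i_at, read 533.0 and 377.4 in WT, 476.4 and 438.5 in KO and 315.9 and 317.8 in KI cells. It shared the low untreated KI signal but differed by 0.01 on the log2 scale between the KI arrays. Its suffix _i_at marks a probe set with fewer unique probes than Affymetrix required.

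Properdin resembled the C1q chains, with larger differences in WT and KO cells. Cfp encodes properdin, which stabilises the alternative pathway convertase. Untreated and stimulated signals were 4247.2 and 1295.1 in WT cells, 4729.4 and 2597.6 in KO cells, and 1576.2 and 1830.5 in KI cells. The stimulated WT array was the lowest and the untreated KI array the next. The stimulated signal was 3.28-fold lower in WT and 1.82-fold lower in KO cells but 1.16-fold higher in KI cells, and the mean log2 change of -0.79 did not pass (SE 0.37, limma adjusted p = 0.249).

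**Figure D2:**
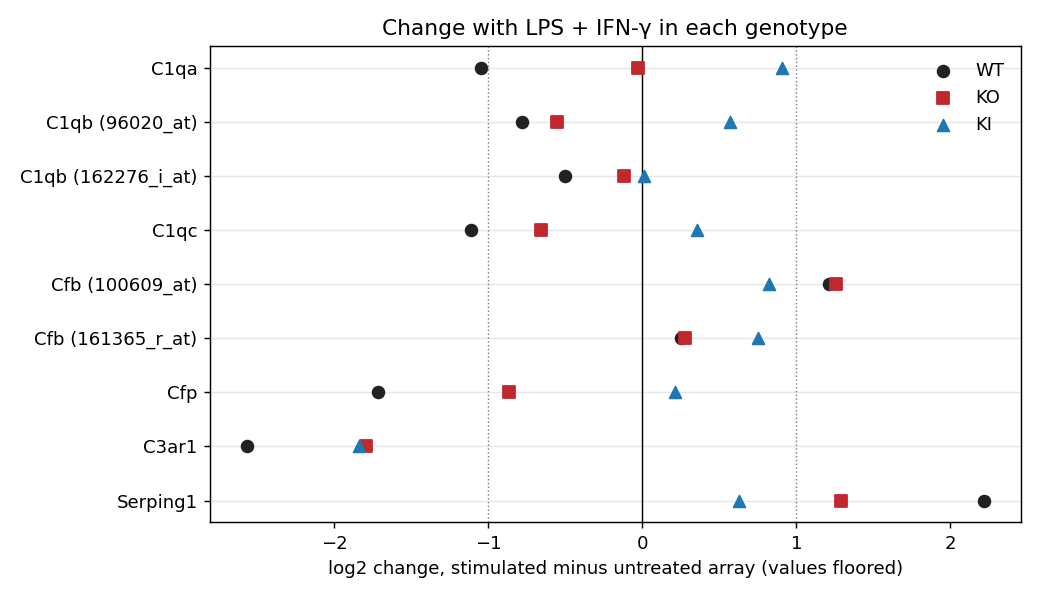
Log2 change from the untreated to the stimulated array in WT, KO and KI cells for each probe set, with dotted lines at a change of 1 either way; each point is a difference of 2 single arrays. For C1qa the WT, KO and KI values are -1.05, -0.03 and 0.91, and for Cfp they are -1.71, -0.86 and 0.22.

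In all, 2 of 7 genes passed the test of stimulation, 1 higher and 1 lower, where 11% of 9344 probe sets did, 5.03% higher and 6.01% lower. A change of at least 2-fold in WT cells was seen for 6 of 7 genes, 2 higher and 4 lower, beside 8.54% of probe sets higher and 10.1% lower. Under median centring or quantile normalization C1qa and C1qc came under 2-fold in WT cells, which left 2 higher and 2 lower. In KO cells it was seen for 3 genes, 2 higher and 1 lower, beside 6.54% and 9.69%. In KI cells C3ar1 alone reached it, by a lower signal, beside 5.58% higher and 8.01% lower. Cfb also reached it there, by a higher signal, with the floor at the 20th percentile (log2 change 1.04), median centring (1.10) or quantile normalization (1.08). C1qa did so under median centring (1.08 higher). With both KI arrays left out, none of the 7 genes passed after adjustment, in a fit that called 13 probe sets in all.

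Untreated cells were then compared between genotypes, as single arrays with no test. KO and WT cells differed by less than 2-fold for all 7 genes, beside 6.3% of probe sets higher and 4.3% lower by at least that much. Serping1 had the largest difference, 1.46-fold lower in KO cells. In untreated KI cells C1qa was 2.89-fold, C1qb 2.10-fold, C1qc 2.10-fold and Cfp 2.69-fold lower than in WT cells. These 4 of 7 genes were lower by at least 2-fold, and none was higher, beside 10% and 8.12% of all probe sets, and the median of the 7 genes was -1.07 on the log2 scale, beside -0.11 over all probe sets tested. Under median centring the difference was -1.20 for C1qa, -0.74 for C1qb, -0.74 for C1qc and -1.10 for Cfp. Against KO the untreated KI signals of C1qa, C1qb and Cfp differed by -1.26, -1.11 and -1.59 on the log2 scale, 3 of 7 genes beside 5.36% of probe sets lower by at least 2-fold.

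The summed signal of the 10 macrophage markers was 60156 in untreated WT, 58203 in untreated KO and 60535 in untreated KI cells, with Lyz2 and Cd68 as its largest terms. Single markers differed under that level sum. Lyz2 (lysozyme) read 19988.6 in untreated WT and 19430.5 in untreated KI cells. The growth factor receptor gene Csf1r read 6667.4 and 11081.9 in the same cells and the mannose receptor gene Mrc1 320.6 and 956.2, both higher in KI cells. Cd14, the LPS co-receptor gene, read 6866.6 and 5108.9, lower in KI cells. Cd5l, a secreted protein of resident macrophages, was also lower, at 1622.0, 800.1 and 279.2 in untreated WT, KO and KI cells. The 7 B cell markers summed to 9583.6, 9552.3 and 6332.7 in untreated WT, KO and KI cells, and from 5775.8 to 6138.7 in stimulated ones. Of the B cell markers Cd79a read 1151.9 in untreated WT and 151.8 in untreated KI cells. Ighm (3232.3 and 789.1), Cd79b (1157.1 and 127.5), Ms4a1 (729.9 and 318.7) and Pax5 (245.5 and 132.9) were also lower in KI cells. Blnk, at 2789.1 and 4261.0, and Cd22, at 277.8 and 551.7, were higher in KI cells, and Blnk made up most of the untreated KI sum. The globin gene Hba-a1 read 1842.6, 1158.0 and 128.2 in untreated WT, KO and KI cells, and the other red cell markers, Alas2 and Slc4a1, were under the floor on these arrays. The part of these cells in the C1q and Cfp signals was not tested.

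In stimulated cells the order of the genotypes was another. C3ar1 was 2.34-fold and Cfp 2.01-fold higher in KO than in WT cells, 2 of 7 genes beside 2.57% of probe sets higher by at least 2-fold. In KI cells the same genes were 1.44-fold and 1.41-fold higher than in WT cells. C1qa was 1.68-fold higher in KO and 1.34-fold higher in KI cells, and C1qb, by its main probe set, and C1qc were 1.19-fold to 1.31-fold higher than WT in both. The 7 dendritic cell markers on the array summed to 5272.7 in WT, 16366 in KO and 8650.2 in KI cells after stimulation, and to between 2086.9 and 2610.6 before it. Most of the stimulated sum was the chemokine Ccl22, at 3049.2, 11070.9 and 6199.4. Ccr7, at 436.2 in WT, 1897.1 in KO and 335.2 in KI, and Fscn1, at 1317.7, 3079.0 and 1912.7, were also highest in stimulated KO cells. Flt3 had another order in stimulated cells, at 414.1 in WT, 261.9 in KO and 137.8 in KI, and Zbtb46, Itgae and Ccl17 were under the floor on every array. The part of such cells in the C3ar1 and Cfp signals was not tested. Serping1 was 2.77-fold lower in KO and 2.78-fold lower in KI cells than in WT cells. It was the only member lower by at least 2-fold, where 3.24% of probe sets were in KO and 4.92% in KI cells, and no member was higher by that much in KI cells, beside 1.89%. Both comparisons use the same WT array, so the stimulated WT signal of Serping1 enters both.

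Markers of the mesothelium and of fibroblasts were read beside Serping1, which such cells also make. The 12 markers summed to 5675.7 untreated and 6314.3 stimulated in WT, 3065.1 and 2962.7 in KO and 3100.4 and 3015.0 in KI cells. The matrix proteoglycan gene Dcn led them at 1966.9 and 2880.3 in WT cells, against 337.4 to 794.0 on the other arrays, but not every marker was highest in WT cells. Col1a1 was highest in untreated KI cells, at 692.5 against 303.9 in untreated WT cells. Of the mesothelial markers Upk3b was above the floor on all 6 arrays, at 204.0 to 286.8, Wt1 only on the WT arrays, at 188.9 and 138.2, and Msln on none. The part of these cells in the Serping1 signal was not tested.

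**Figure D3:**
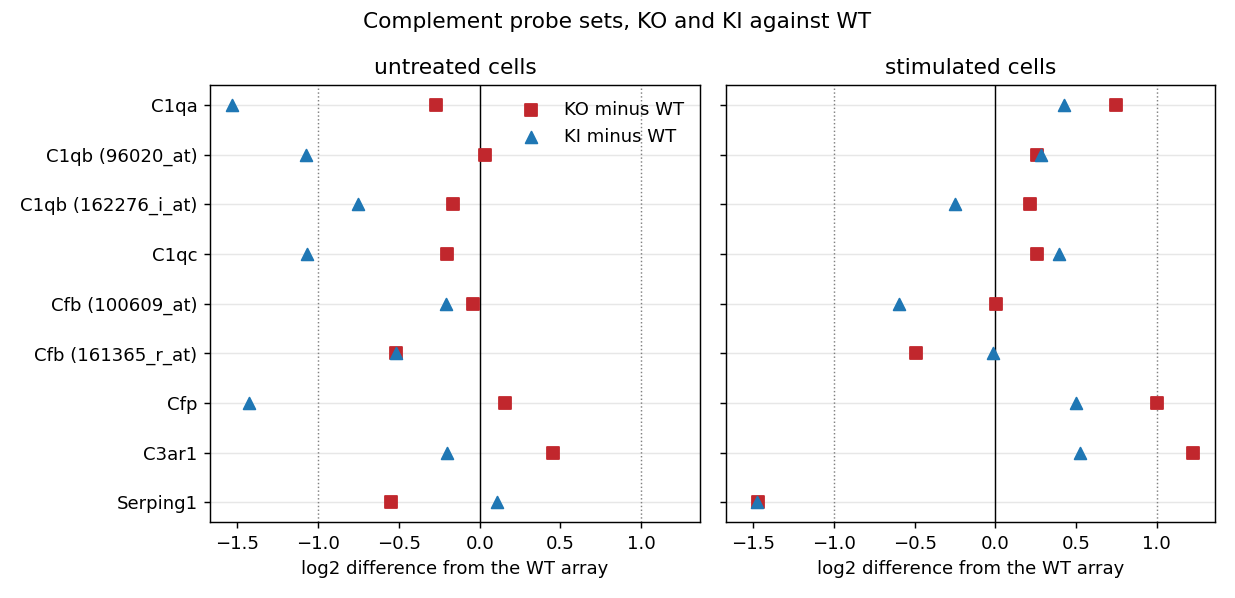
Log2 difference of the KO and the KI array from the WT array for each probe set, in untreated and in stimulated cells, with dotted lines at a difference of 1; each point is a difference of 2 single arrays. Untreated KI cells are lower for the C1q chains and Cfp, and both stimulated genotypes are lower for Serping1 (-1.47 in each).

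Averaged over both states, no member passed a test between genotypes. The additive limma fit called 0 of 7 genes for KO against WT, KI against WT and KI against KO. Across all probe sets it called 0%, 0.0107% and 0%. The member with the lowest unadjusted p was C3ar1, higher in KO than in WT cells by 0.84 on the log2 scale (interval 0.24 to 1.44, limma adjusted p = 0.432) and lower in KI than in KO cells by a log2 difference of -0.68 (interval -1.28 to -0.08, limma adjusted p = 0.646). For Serping1 the KO minus WT difference was -1.01 (interval -2.13 to 0.11, limma adjusted p = 0.529). For Cfp the KI minus KO difference was -1.05 (interval -2.20 to 0.11, limma adjusted p = 0.678). These intervals are wide, and a p that misses the threshold does not show that the genotypes were alike.

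The rest of the complement system was read from a list of 42 other genes, of which 27 had a probe set and 19 were above the floor on at least 1 array. The limma test of stimulation called 1 of these 19 higher and 2 lower, beside 5.03% and 6.01% of all probe sets, and their median log2 change was -0.27, beside -0.12 over all probe sets. On the floored log2 scale Masp2, Cr1l, Cd59a and Cd59b were also lower on the stimulated array of each genotype and did not pass. The stimulated KI signal of Masp2, 11.4, was under the floor. C1ra, the protease C1r that C1q carries, had WT signals of 339.9 and 1239.7, KO signals of 240.6 and 829.4 and KI signals of 191.6 and 988.3, untreated and stimulated. It rose by a mean log2 change of 2.01 (SE 0.21, limma adjusted p = 0.00894). Thus the C1ra signal was higher after stimulation in each genotype, also in WT and KO cells, where the C1qb and C1qc signals were lower. The C1ra probe set has the suffix _f_at. Whether it also reads C1rb, a listed gene with no probe set of its own, was not tested. C5ar1, the receptor for the chemoattractant C5a, had WT signals of 1706.4 and 1013.9, KO signals of 1391.1 and 727.9 and KI signals of 1440.9 and 581.0. Its mean log2 change was -0.999 (SE 0.17, limma adjusted p = 0.0275). Cd93, a surface protein once described as a C1q receptor, had WT signals of 1680.6 and 263.9, KO signals of 2893.6 and 116.4 and KI signals of 4167.4 and 241.3. It had the largest change of the 19, a mean log2 change of -3.81 (SE 0.40, limma adjusted p = 0.00869). With any 1 array left out the mean log2 change stayed between 1.83 and 2.12 for C1ra, between -1.12 and -0.84 for C5ar1 and between -4.37 and -3.39 for Cd93. The calls were lost in these fits of 1 residual degree of freedom (limma adjusted p 0.11 to 0.318).

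Other parts of the cascade were dim or did not pass. C2, the classical pathway counterpart of factor B, read 248.1 and 279.7 in WT, 217.1 and 176.6 in KO, and 128.9 and 205.3 in KI cells, with no common direction (mean log2 change 0.18, SE 0.28, limma adjusted p = 0.71). Of the 9 listed genes for C4, C5 and the terminal components, 3 had a probe set, and their signals reached at most 300.5, for C8g in untreated WT cells. The complement-regulating membrane protein gene Cr1l read 1884.9 and 1141.9 in WT, 1456.4 and 959.0 in KO, and 1072.6 and 848.7 in KI cells. Its mean log2 change was -0.55 (SE 0.15, limma adjusted p = 0.0798). The genes of the regulators Cfi, C4bp, Vtn, Cpn1, Cd55 and Cd46, of the protease Masp1 and of the receptor Cr2 were under the floor on every array.

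**Figure D4:**
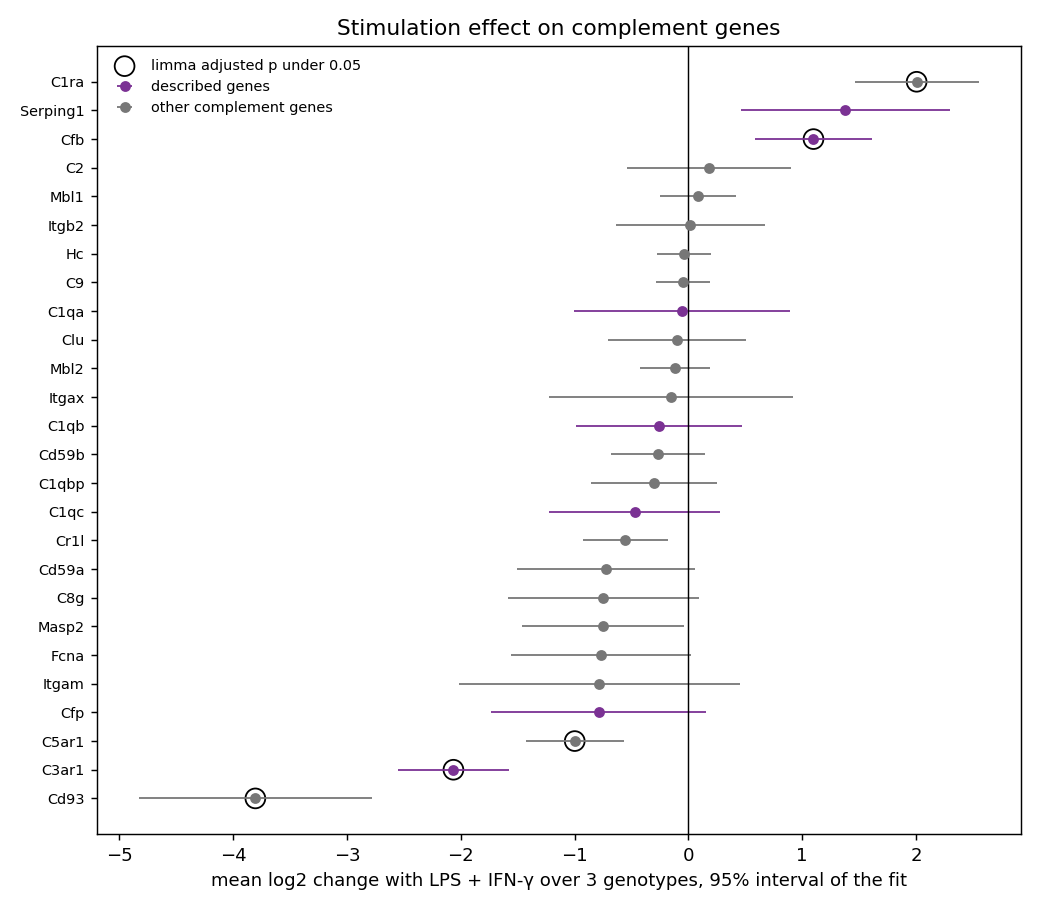
Mean log2 change with LPS and interferon-γ over the 3 genotypes, with the 95% interval of the limma fit, for 7 members and 19 other complement genes; circled genes had an adjusted p under 0.05. C1ra and Cfb are circled to the right of 0, and C5ar1, C3ar1 and Cd93 to the left.

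The genes nearest to each member in pattern were found by the root mean square difference of log2 values, each centred over the 6 arrays, among 3351 named genes (3352 for Cfb) with a signal of at least 532 on some array. This is a description of 6 arrays with no test. The nearest gene to C1qc was Tra2b (0.12), and C1qb was the third (0.14), while C1qa ranked 269 (0.30). For C1qb the nearest were Cebpd (0.13), which encodes C/EBPδ, then C1qc (0.14) and Ndufa2 (0.15), with C1qa at rank 46 (0.22). For C1qa they were Anapc16 (0.19), Igbp1 (0.21) and C1qb (0.22), with C1qc at rank 21 (0.30). C1qc ranked 23 for Cfp, whose nearest genes were Uimc1 (0.21), Raly (0.24) and Inpp5k (0.25).

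The patterns of the other members led elsewhere. C3ar1 lay nearest to Ifngr1 (0.24), which encodes a chain of the interferon-γ receptor and read 707.4 and 178.1 in WT, 910.0 and 290.1 in KO and 713.3 and 232.0 in KI cells. Otulinl (0.28) and Pkib (0.32) came next, with Pkib under the floor in stimulated WT cells, at 85.1. Serping1 lay nearest to the coagulation factor X gene F10 (0.19), then Ubd (0.21), a ubiquitin-like modifier, and Inhba (0.30), an activin subunit. Ubd read 49.7 and 45.5 in untreated KO and KI cells, and Inhba 19.7 in untreated KO cells. These signals were under the floor, so the floor enters both distances. Cfb lay nearest to the kinase gene Map2k1 (0.13), then Gm20362 and the signalling adaptor gene Traf2 (both 0.14).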

How the data were processed

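RNA of mouse peritoneal exudate cells was measured on 6 Affymetrix arrays, from 6 µg of total RNA per the labels' protocols. The authors deposited linear signal intensity, and the submitters' processing notes name MAS5; no version or scaling target is given in the sources used here. Groups came from the sample titles, with 1 array each.

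Signals were brought to 1 trimmed mean (lowest and highest 2% left out), floored at the 40th percentile (98.0) and converted to log2. After 66 control probe sets were left out, the 9344 probe sets that passed the floor on some array were fitted with limma 3.58.1 in R 4.3.3 (lmFit, eBayes with an intensity trend, genotype and state as additive terms, 2 residual degrees of freedom, Benjamini-Hochberg adjustment over all 9344 at 0.05). The probe set with the highest mean stood for a gene in counts. Changes within a genotype or state have no test and were counted at 1 on the log2 scale. The code was tested on simulated data. Alternatives were other floors, a pseudocount, other scaling, no filter, no trend, other probe sets and arrays left out.

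Named genes were all members, other complement genes past a test or moved at least 2-fold the same way in all 3 genotypes, and the 3 nearest genes in pattern of each member. Other genes given by value only were chosen after their values were seen. Members and lists were chosen with earlier results of these data known.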

Additional observations from a re-analysis of the deposited data

Results flagged for a closer look

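Several members moved one way in KI cells and the other way in WT and KO cells after stimulation, as single pairs of arrays, so that the differences were not tested. For C1qa the log2 change in KI cells exceeded that in WT cells by 1.95 and that in KO cells by 0.94. For C1qb the differences were 1.35 and 1.13 by its main probe set, and 0.51 and 0.13 by the other one. For C1qc they were 1.47 and 1.01, and for Cfp 1.93 and 1.08. The sign in KO cells turned under median centring for C1qa and for the second C1qb probe set. All 4 genes share the untreated KI array, on which their signals were low. Over all 9344 probe sets, 12% were lower in WT and higher in KI cells after stimulation.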

How the results depend on the processing

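The limma fit pairs the arrays by genotype, and the labels number no replicates that could give a further block. The number of members called for stimulation, 2, was 1 with the floor at the 20th or the 60th percentile or with the lowest probe set of each gene. It was 0 without the filter on dim probe sets, where 69 probe sets passed in all. Among the other complement genes the 3 calls became 0 without that filter. Without both WT, both KO or both KI arrays no member and no other complement gene was called, and the same held with any 1 array left out. These limma fits have 1 residual degree of freedom and fewer arrays, and called 0 to 15 probe sets in all. For stimulation, leaving out 1 array of a genotype gives the same estimate as leaving out both, so these were not separate checks. The number of members moved at least 2-fold in WT cells, 6, was 4 with median centring or quantile normalization, where C1qa and C1qc came under 2-fold. In KO cells it was 1 with the floor at the 60th percentile and 4 with quantile normalization, and in KI cells 2 with the floor at the 20th percentile, 3 with median centring and 2 with quantile normalization. In KO cells, Cfb (log2 change 0.07) and Serping1 (0.72) came under 2-fold with the floor at the 60th percentile. Cfp passed 2-fold in KO cells with quantile normalization (-1.05). In KI cells the added genes were Cfb in each of these settings and C1qa with median centring. Of 315 genotype differences of members under these alternatives, 0 passed the limma test. The main fit called 0%, 0.0107% and 0% of all probe sets for KO against WT, KI against WT and KI against KO. A count of 0 for the members thus says little about them. Of 126 changes within a genotype, 14 moved by more than 1 residual SD of the gene, 13 of them for Cfb or Serping1. Serping1 moved only in KO cells with the floor at the 60th percentile, to 0.72, and the rest of the 13 were for Cfb. The other 1 was C1qb in KI cells with the lowest probe set, at 0.01. The residual SD is how far a gene's response differed between genotypes, from 0.17 for Cfb to 0.69 for C1qa. A shift of 1 size was thus counted for Cfb more readily than for C1qa, and the count does not rank the genes by stability.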

Other observations

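Complement receptors of the integrin family, chosen after their values were seen, differed between genotypes in untreated cells. Itgax, a subunit of complement receptor CR4, read 816.1 and 1629.8 in WT, 1798.6 and 1526.2 in KO, and 7300.9 and 3141.0 in KI cells, untreated and stimulated. Itgam, a subunit of CR3, read 474.2 and 721.8 in WT, 1563.1 and 728.4 in KO and 1262.8 and 349.4 in KI cells. After stimulation both were higher in WT cells and lower in KO and KI cells, and these single pairs have no test. Fcna, which encodes the lectin pathway protein ficolin A, was low in KI cells in both states, at 426.7 and 441.0. Its WT signals were 1397.2 and 712.6, and its KO signals 1353.0 and 519.5. Clu, the fluid-phase inhibitor clusterin, read 582.3 and 569.4 on the WT arrays and 153.2 to 209.7 on the others, the arrays on which the summed mesothelial and fibroblast markers were also lower, and its differences did not pass after adjustment.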
